A study of Mus musculus with 4 samples.

Results

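The CCN family comprises small secreted, cysteine-rich matricellular proteins, which sit in the extracellular matrix and act on cells without forming fibres. Full-length members are built from 4 modules, an IGFBP-like, a von Willebrand factor C, a thrombospondin type 1 and a C-terminal cystine knot module, and they bind integrins, heparan sulfate proteoglycans, LRP receptors and growth factors. In skeletal muscle and other tissues CCN genes are known as products of stromal cells that respond to stretch, TGF-beta and injury. Cyr61 (Ccn1), Ctgf (Ccn2), Nov (Ccn3), Wisp1 (Ccn4) and Wisp2 (Ccn5) were looked up by symbol in the table of read counts, which lists all 5 under their older names among 24421 gene symbols, and each passed the filter that left 11588 genes for testing. In FAPs sorted from 2 mice, Nov was higher and Ctgf, Wisp1 and Wisp2 were lower in DPPIV+ than in DPPIV- FAPs, whereas Cyr61, the member with the highest level per length, did not pass the test.

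Libraries were made from DPPIV- and DPPIV+ FAPs (fibro-adipogenic progenitors, PDGFRα+ stromal cells of muscle) of the same 2 wild-type mice, so each cell type has 2 libraries (n = 2 mice) and the data set 4. Both cell types were gated as live CD31- CD45- Sca1+ cells and differed in the gate on DPPIV, the surface peptidase encoded by Dpp4. All the mice had 3 weeks of CSF1R inhibition, which depletes macrophages, and then 3 days on regular diet, so no untreated group is part of these data. The sources used here do not give the age or sex of these 2 mice, and they name the tibialis anterior in the sample labels but both hindlimbs in the methods. The libraries held between 18240110 and 20879405 counts, and a count of 0 allowed up to 3 counts, between 0.143 and 0.166 CPM (counts scaled to the library's total), which covers counting error only. Dpp4 was at 89.6 and 39.6 CPM in DPPIV- FAPs and at 726 and 574 CPM in DPPIV+ FAPs (mouse 1 first, mouse 2 second), as the gate requires. The mice also differed in Xist, with 153 and 166 reads in the libraries of mouse 1 and 1 and 3 reads in those of mouse 2. Of the FAP markers, Pdgfra (1564 and 1198 mean CPM in DPPIV- and DPPIV+ FAPs) and Ly6a, which encodes Sca1 (979 and 1461 mean CPM), were high in both cell types, and the 5 FAP markers summed to between 27590 and 35060 CPM per library. Of the markers of other cells, the 6 tenocyte genes were high, with sums of between 1971 and 3957 CPM per library, most of it from Thbs4 (1845 and 1682 mean CPM) and Fmod (213 and 1064 mean CPM). The other lists were lower but not absent. The 6 mural markers summed to 121 and 123 CPM in DPPIV- FAPs and to 51.0 and 63.4 CPM in DPPIV+ FAPs, the 6 blood endothelial markers to between 39.0 and 75.5 CPM, the 6 macrophage markers to between 46.0 and 76.9 CPM, the 6 markers of satellite cells and myofibres to between 30.6 and 49.7 CPM, and the 6 markers of glia and perineurium to between 24.7 and 34.0 CPM per library. Timd4 (3 reads in 1 library, 0 in the others) and Pax7 (7 to 10 reads), which define self-renewing macrophages and satellite cells, were near 0. In bulk samples, a lower share of cells that express a gene and less RNA per cell cannot be told apart.

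All 5 genes have 5 exons in their principal transcript (GENCODE release M21 on GRCm38). Cyr61 (ENSMUSG00000028195.4) lies on the minus strand of chromosome 3 from 145646976 to 145649981, and Ctgf (ENSMUSG00000019997.11) on the plus strand of chromosome 10 from 24595442 to 24598683. Nov (ENSMUSG00000037362.8) and Wisp1 (ENSMUSG00000005124.10) are both on the plus strand of chromosome 15, from 54745702 to 54754039 and from 66891320 to 66923201, and Wisp2 (ENSMUSG00000027656.7) is on the plus strand of chromosome 2 from 163820861 to 163833146. Their coding regions hold 379 codons for Cyr61, 348 for Ctgf, 354 for Nov and 367 for Wisp1, but 251 for Wisp2, which lacks the cystine knot module. Translated, they contain 38, 39, 40, 38 and 29 cysteines in the same order. The sequences that tie the members together are those of the cysteine cluster in the IGFBP-like module, where glycine and cysteine are followed by any residue, a pair of cysteines, 2 further residues and a cysteine. These 24 coding bases are shown for the 5 members, 5′ to 3′, with the cysteine codons in capitals and all other codons in lower case, as read from the GENCODE transcripts.
Cyr61, codons 49 to 56: ggcTGCggcTGCTGTaaggtcTGC
Ctgf, codons 52 to 59: ggcTGCggcTGCTGCcgcgtcTGC
Nov, codons 54 to 61: ggcTGCtccTGCTGTccggtgTGC
Wisp1, codons 72 to 79: ggcTGTgaaTGCTGTaagataTGT
Wisp2, codons 49 to 56: ggcTGTggcTGCTGTcgagtgTGT
The stretches were found by this pattern, so the places of the glycine codon and the 4 cysteine codons are set by the search. Part of the bases shared by any pair therefore follows from the search. The codons between them are shared by some members, such as ggc in Cyr61, Ctgf and Wisp2, and differ in others. Cyr61 and Ctgf share 20 of the 24 bases, the most of any pair, and Ctgf and Wisp1 share 14.

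The members are not near-copies of each other at the level of reads. No stretch of at least 50 bases with 97% identity or more to another gene was found in the transcripts of Cyr61, Wisp1 and Wisp2. In Nov, 92 of 2869 bases, from 1708 to 1799 and so after the coding region, matched transcripts of 38 other genes. Ctgf shares 665 exon bases with Gm15270 on the opposite strand, a gene that the counts do not list. The methods name a stranded library kit (TruSeq Stranded) and the sample labels another kit (NEBNext Ultra II). Whether the counting used strand is not given in the sources used here.

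**Figure D1:**
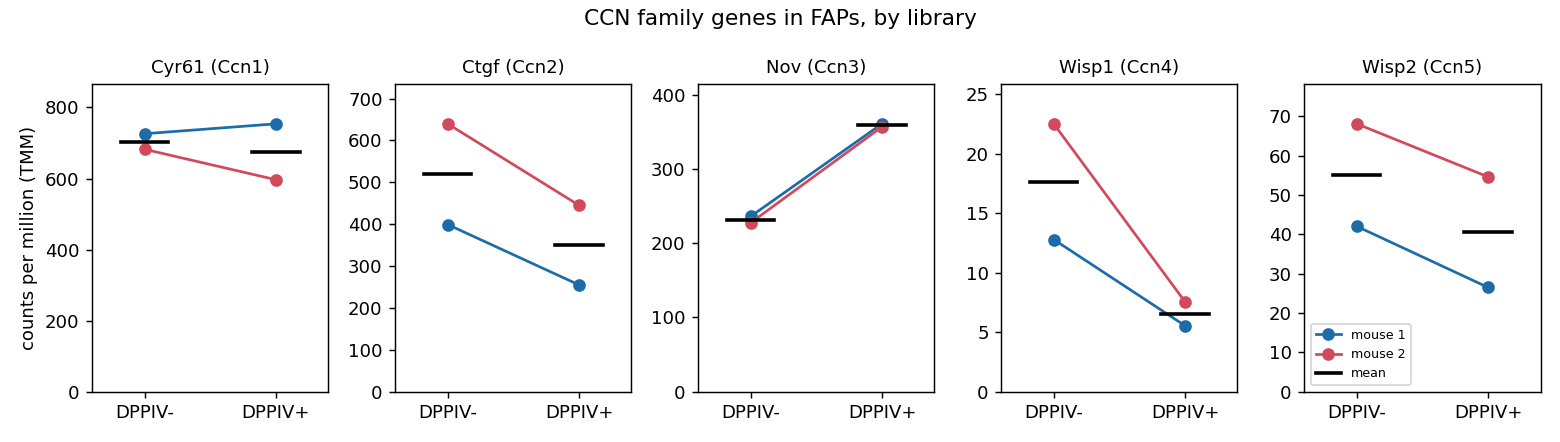
CPM (TMM-scaled, linear axes from 0) of the 5 CCN genes in DPPIV- and DPPIV+ FAPs, with a line joining the libraries of each mouse and a black bar at the mean of 2 mice. The lines of Nov slope up to nearly the same level, those of Ctgf, Wisp1 and Wisp2 slope down in both mice, and those of Cyr61 run in opposite directions.

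Nov, a member often described as opposing the actions of Ctgf, was the only one of the 5 that was called higher in DPPIV+ FAPs. In DPPIV- FAPs, mouse 1 had 236 CPM and mouse 2 had 227 CPM, and in DPPIV+ FAPs they had 361 and 357 CPM. Both DPPIV+ libraries lay above both DPPIV- libraries, and the mice were close to each other in each cell type. The mean rose from 232 ± 6.06 to 359 ± 2.92 CPM (SD, n = 2), a 1.55-fold difference. On the log2 scale this was 0.63 ± 0.07 (± here and below on fitted fold changes is the standard error), and its adjusted p was 2.24e-19 by edgeR's quasi-likelihood test, with mouse in the model and Benjamini-Hochberg adjustment across all genes tested. The log2 ratio was 0.61 in mouse 1 and 0.65 in mouse 2. Of all genes tested, 5.26% had a larger log2 fold change toward DPPIV+ FAPs.

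Wisp1, first known as a target of Wnt1 and a FAP-derived factor that supports muscle stem cells, differed most. Its reads numbered 268 and 441 in DPPIV- FAPs and 100 and 138 in DPPIV+ FAPs, which corresponds to 12.8 and 22.5 CPM against 5.54 and 7.56 CPM. Both DPPIV+ libraries were below both DPPIV- libraries, and mouse 2 was above mouse 1 in each cell type. Its mean fell from 17.6 ± 6.87 to 6.55 ± 1.42 CPM (SD, n = 2). Wisp1 was thus 2.66-fold lower in the fit, or -1.41 ± 0.15 on the log2 scale (edgeR adjusted p = 1.26e-20), with log2 ratios of -1.20 in mouse 1 and -1.57 in mouse 2. A more negative log2 fold change was found for 2.55% of the genes tested.

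Ctgf, a profibrotic mediator induced by TGF-beta and by YAP and TAZ, was at 399 CPM in mouse 1 and 640 CPM in mouse 2 among DPPIV- FAPs, and at 255 and 445 CPM among DPPIV+ FAPs. The cell types overlapped, because DPPIV+ FAPs of mouse 2 lay above DPPIV- FAPs of mouse 1, but within each mouse DPPIV+ FAPs were lower. The mean fell from 520 ± 170 to 350 ± 134 CPM (SD, n = 2), a 1.50-fold decrease, or -0.58 ± 0.07 on the log2 scale (edgeR adjusted p = 2.55e-16). Its log2 ratio was -0.65 in mouse 1 and -0.52 in mouse 2. Without mouse in the model, which leaves the difference between the mice in the error, the adjusted p of Ctgf in edgeR's test was 0.25 (range over all alternatives 5.70e-18 to 1), so this call rests on pairing the libraries of each mouse.

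Wisp2, which is known to restrain adipogenic commitment in mesenchymal precursors, had the same form. It was at 42.0 and 68.1 CPM in DPPIV- FAPs and at 26.5 and 54.6 CPM in DPPIV+ FAPs. Here too the cell types overlapped and each mouse showed a decrease, with log2 ratios of -0.67 in mouse 1 and -0.32 in mouse 2. The mean went from 55.0 ± 18.4 to 40.5 ± 19.9 CPM (SD, n = 2). The fitted log2 fold change was -0.47 ± 0.08, or 1.39-fold lower, with an adjusted p of 3.25e-09 in the same edgeR test. As for Ctgf, the unpaired edgeR model gave no call (adjusted p = 0.46, range over all alternatives 1.37e-10 to 1).

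Cyr61, an immediate early gene whose heparin-binding product acts through integrins in angiogenesis and repair, was at 726 and 682 CPM in DPPIV- FAPs and at 754 and 597 CPM in DPPIV+ FAPs. The cell types overlapped and the mice went in opposite directions, with log2 ratios of 0.054 in mouse 1 and -0.19 in mouse 2. With means of 704 ± 31.0 and 675 ± 111 CPM (SD, n = 2), the fitted log2 difference was -0.07 ± 0.07 (edgeR adjusted p = 0.509). Its 95% interval, from the standard error, ran from -0.21 to 0.07. The sixth gene of the family, Wisp3 (Ccn6), had 2 and 4 reads in DPPIV- FAPs and 0 and 1 reads in DPPIV+ FAPs and was not tested.

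**Figure D2:**
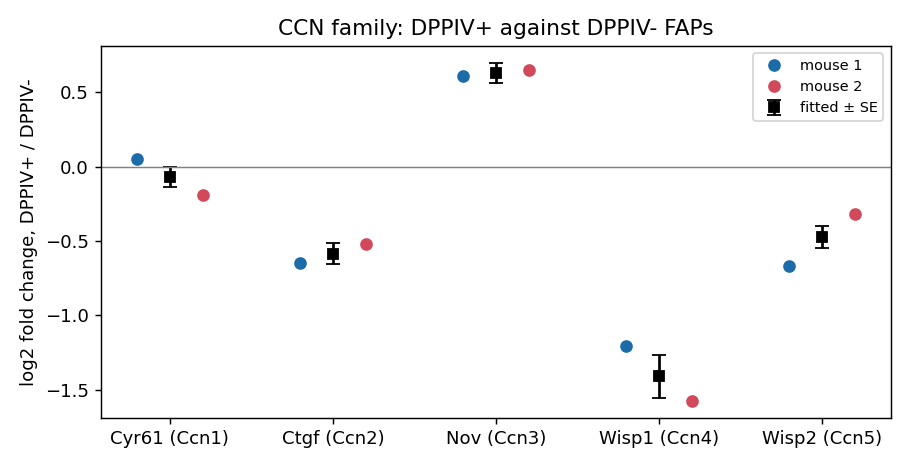
Log2 fold change of each CCN gene in DPPIV+ against DPPIV- FAPs: black squares with bars give the fitted value ± its standard error, and coloured points the ratio within each mouse. The 2 mice stand on the same side of 0 for Nov, Ctgf, Wisp1 and Wisp2, and on opposite sides for Cyr61.

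Of the 5 members, 1 was called higher and 3 were called lower at an adjusted p under 0.05, against 15.9% of all genes tested called higher and 17.2% called lower. DESeq2's Wald test gave the same 1 higher and 3 lower genes, where 7.97% of genes were called higher and 8.59% lower, with an adjusted p of 3.06e-10 for Nov, 7.95e-07 for Wisp1, 4.36e-09 for Ctgf and 0.0107 for Wisp2. The groups did not overlap for 1 member toward higher values (Nov) and 1 toward lower values (Wisp1), as was the case for 27.8% and 28.6% of genes. The median log2 fold change was -0.47 over the 5 members and -0.002 over all genes tested. Sizes were modest, and against a 1.5-fold change edgeR called Wisp1 alone of the 5. The prior degrees of freedom in edgeR's fit were infinite, so no member kept a spread of its own and the p-values depend on the trend fitted over all genes.

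**Figure D3:**
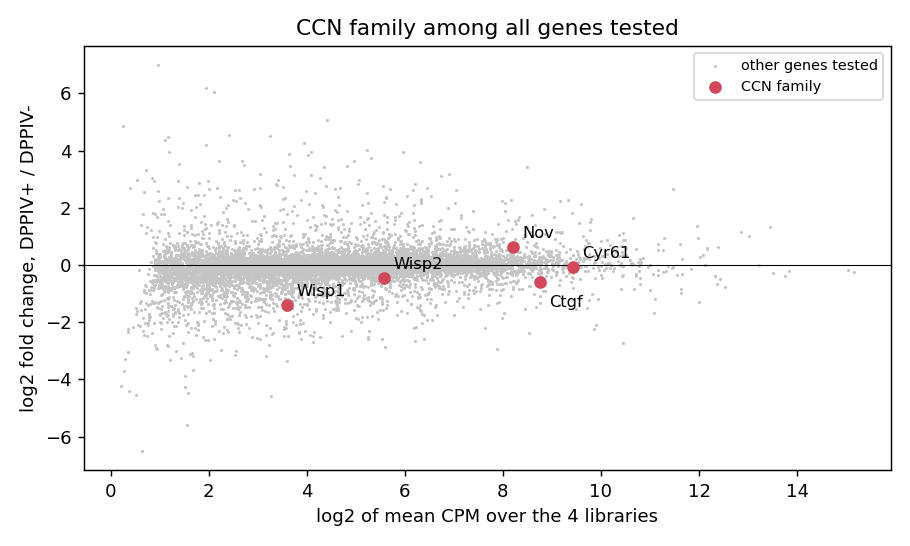
Each grey point is 1 of the genes tested, placed by the log2 of its mean CPM over the 4 libraries and by its log2 fold change in DPPIV+ against DPPIV- FAPs, and the CCN genes are in red. Among the members, Wisp1, with the fewest counts, lies furthest from 0, and Cyr61, Ctgf and Nov are among the genes with many counts.

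The second difference among these libraries was between the mice. In the same edgeR model the mouse term was called for Ctgf, Wisp1 and Wisp2, all higher in mouse 2, and for Cyr61, lower in mouse 2, so 3 members were higher and 1 was lower where 4.47% and 4.51% of all genes were called. The log2 difference of mouse 2 from mouse 1 was 0.74 for Ctgf (standard error 0.07), 0.85 for Wisp2 (0.08), 0.68 for Wisp1 (0.14) and -0.21 for Cyr61 (0.07), and -0.03 for Nov, which was not called (adjusted p = 0.845, edgeR). For Ctgf it was 0.68 in DPPIV- and 0.80 in DPPIV+ FAPs, and for Wisp2 0.70 and 1.04, and in both genes the fitted value between the mice was larger in size than that between the cell types, though this was not tested. With DESeq2's Wald test the mouse term was not called for Wisp1 (adjusted p = 0.391) or Cyr61 (adjusted p = 0.627). For Cyr61 the call was also lost with RLE size factors (adjusted p = 0.0621) and with edgeR's likelihood ratio test (adjusted p = 0.0668).

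Tenocyte markers also differed between the mice. The 6 genes of this list summed to 1971 and 1999 CPM in the DPPIV- and DPPIV+ libraries of mouse 1 and to 2634 and 3957 CPM in those of mouse 2, and the defining transcription factor Scx had 18 and 66 reads in mouse 1 and 34 and 143 reads in mouse 2. Within the list, Scx, Tnmd, Mkx and Fmod were called higher in DPPIV+ FAPs, with a log2 fold change of 2.26 for Fmod, while Comp and Thbs4 were called lower, with log2 fold changes of -0.56 and -0.20. DESeq2 kept the 4 higher calls and neither of the lower ones. Other genes differed between the mice too, among them Xist, given above, and the heat shock gene Hspa1a. Hspa1a had 20526 and 13564 reads in the DPPIV- and DPPIV+ libraries of mouse 1 and 8526 and 6142 in those of mouse 2. The part of tendon cells, or of these other differences, in the values of Ctgf, Wisp1 and Wisp2 was not tested.

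Divided by exon length, so that genes can be compared, the members spanned more than 2 orders of magnitude. In DPPIV- FAPs the order was Cyr61 (349 ± 15.4 CPM per kilobase, SD, n = 2), Ctgf (182 ± 59.4), Nov (80.8 ± 2.13), Wisp2 (28.6 ± 9.57) and Wisp1 (3.17 ± 1.23), and no neighbours in it overlapped between mice. In DPPIV+ FAPs Cyr61 again came first (335 ± 55.1) and Wisp2 (21.1 ± 10.3) and Wisp1 (1.18 ± 0.256) last, but Nov (125 ± 1.01) and Ctgf (122 ± 47.0) did not differ beyond their spread. Nov made up 13.6% and 11.7% of the summed family level in the DPPIV- libraries and 20.8% and 20.5% in the DPPIV+ libraries, mouse 1 given first. The share of Ctgf was 23.0% and 32.9% in DPPIV- and 14.8% and 25.7% in DPPIV+ FAPs. The family summed to 606 and 680 CPM per kilobase in DPPIV- FAPs and to 603 and 605 in DPPIV+ FAPs, a ratio of 0.996 in mouse 1 and 0.890 in mouse 2.

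**Figure D4:**
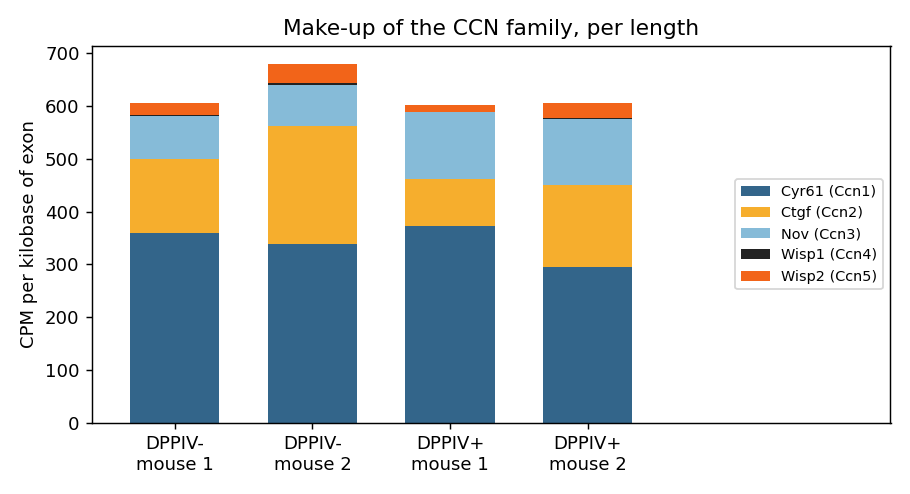
Stacked bars of the 5 CCN genes in each library, in CPM per kilobase of exon. Bar heights run from 603 to 680, Cyr61 is the largest part of each bar, and the Nov part is larger and the Ctgf part smaller in the DPPIV+ library of each mouse.

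By the distance between log2 CPM values centred on each gene's mean, Ctgf and Wisp2 were the closest pair (0.19) and Nov and Wisp1 the farthest (2.12). The 3 genes nearest to Nov among all genes tested were Il15ra (distance 0.03), Il33 (0.04) and Aebp1 (0.04), with log2 fold changes from 0.60 to 0.66. Nearest to Wisp1 were Runx1 (0.13), Ptprf (0.15) and Mboat1 (0.19). Wisp2 had Comp (0.17), then Ctgf (0.19) and Mthfd2 (0.20), and Ctgf had Homer2 (0.16), Mthfd2 (0.18) and Cmya5 (0.18). Around the nearly flat pattern of Cyr61 were Tsr3, Rab36 and Slc35d2, all at 0.03 or less and under 10 CPM. With 4 libraries such distances are descriptions only.

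CCN proteins signal through receptors whose genes were also counted in these libraries. Of 14 receptor and partner genes, 13 were tested, and 1 was called higher, 6 lower and 6 neither, beside 15.9% of all genes tested called higher and 17.2% lower (median log2 fold change -0.19, and -0.002 over all genes). Itgb3, the integrin chain that pairs with αv to bind CCN proteins, rose from 68.8 to 117 mean CPM (log2 fold change 0.77, standard error 0.07). Notch1, described as a partner of the Nov protein, fell from 35.7 to 18.1 CPM (log2 fold change -0.98). Itga6 fell from 8.30 to 4.49 CPM (-0.88), although DESeq2 gave Itga6 an adjusted p of 0.0506. Of the 6 blood endothelial markers, edgeR called 4 lower and DESeq2 none (median log2 fold change -0.40). From DPPIV- to DPPIV+ FAPs their sum went from 75.5 to 45.2 CPM in mouse 1 and from 41.8 to 39.0 CPM in mouse 2. The log2 ratios in mouse 1 and mouse 2 were -1.03 and -0.93 for Notch1 and -1.04 and -0.71 for Itga6. The part of endothelial cells in the values of Notch1 and Itga6 was not tested. Itgb1, Itgav, Itgb5, Sdc4, Lrp1 and Itgam did not pass the test, and the abundant Lrp1 had 4437 and 4449 mean CPM. By DESeq2, 1 gene was higher and 3 were lower, beside 7.97% and 8.59% of all genes. The macrophage markers Adgre1 and Csf1r were also lower in edgeR's test (log2 fold changes of -0.53 and -0.32), beside the leukocyte integrin Itgb2 (-0.32). DESeq2 called none of these 3. The log2 ratio of Csf1r was -0.59 in mouse 1 but -0.00095 in mouse 2. The macrophage markers Ptprc, Cd68 and Lyve1 were not called, and Timd4 was not tested.

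YAP and TAZ are co-activators that drive Cyr61 and Ctgf through TEAD factors when cells are stretched. Of 11 regulators 10 were tested, with 3 called higher, 5 lower and 2 neither (15.9% and 17.2% of all genes were called higher and lower, median log2 fold change -0.12). Vgll3, a TEAD cofactor, rose from 35.3 to 100 CPM (log2 fold change 1.51), and Tead2 fell from 10.6 to 2.98 CPM (-1.83). Wwtr1, which encodes TAZ, was lower by edgeR (-0.37, adjusted p = 1.96e-07) and DESeq2 (adjusted p = 0.00247), and Yap1 (-0.29) by edgeR alone (DESeq2 adjusted p = 0.0877). DESeq2 left 1 of the list higher and 2 lower (7.97% and 8.59% of all genes). Of 20 other genes known as YAP and TAZ targets, 19 were tested, and 10 were called higher, 7 lower and 2 neither (8 and 5 by DESeq2, median 0.26), against the same shares over all genes. Nt5e, the ecto-nucleotidase CD73, rose from 5.38 to 15.1 CPM (log2 fold change 1.47), while F3, tissue factor, fell from 299 to 113 CPM (-1.40) and Ptpn14 from 30.2 to 14.5 CPM (-1.06). Ankrd1 had 2 and 3 reads in DPPIV- and 15 and 13 reads in DPPIV+ FAPs and was not tested.

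RefSeq's promoter table (GRCm38.p6) matched 1 of the 5 members, Cyr61. It is shown because TEAD binding next to this gene is the textbook route from YAP to a CCN gene. The 250 bases before its start, chr3:145649986-145650235 on the minus strand, read 5′ to 3′ with the only motif match in capitals.
Cyr61 promoter: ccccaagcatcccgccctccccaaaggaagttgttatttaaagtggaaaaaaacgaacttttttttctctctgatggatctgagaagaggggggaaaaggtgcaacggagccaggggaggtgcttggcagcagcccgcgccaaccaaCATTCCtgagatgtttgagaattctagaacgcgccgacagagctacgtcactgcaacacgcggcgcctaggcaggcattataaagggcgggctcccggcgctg
On both strands, it held 1 match to the TEAD motif GGAATG, on the opposite strand, and none to the AP-1 motif TGANTCA, the TCF/LEF motif CTTTGAT, the SMAD motif CAGACA or the CArG box. Of 32851 promoter windows of this length, 12.6% held the TEAD motif, 6.75% the AP-1, 3.21% the TCF/LEF and 17.1% the SMAD motif, and 1.47% a CArG box. A match in these letters is a description and not evidence of binding.

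TGF-beta is a main inducer of Ctgf in fibroblasts. All 14 genes of the TGF-beta response list were tested, with 2 called higher, 8 lower and 4 neither (1 and 6 by DESeq2, median log2 fold change -0.33). Over all genes 15.9% were called higher and 17.2% lower, and 7.97% and 8.59% by DESeq2. Ltbp2, a matrix protein that resembles the latent TGF-beta binding proteins, fell from 64.4 to 11.3 CPM (-2.53). Fn1, fibronectin, rose instead, from 6370 to 15980 CPM (1.33). The receptor-proximal feedback genes Smad7 (-0.13) and Skil (-0.03) did not pass the test. Their log2 ratios in mouse 1 and mouse 2 were 0.12 and -0.36 for Smad7 and 0.14 and -0.175 for Skil. Pmepa1, the other gene of the list called higher by edgeR (0.22), was not called by DESeq2 (adjusted p = 0.139). The mural markers Notch3, Kcnj8 and Cspg4 were lower as well (log2 fold changes of -1.60, -1.32 and -1.27). Mcam (-0.82) and Rgs5 (-0.42) were lower by edgeR and not by DESeq2. Myh11 was not called, with log2 ratios of -0.56 in mouse 1 and 0.04 in mouse 2. The contractile genes Acta2 (-0.55) and Tagln (-0.66) of the TGF-beta list were lower by edgeR. DESeq2 called neither (adjusted p = 0.0544 and 0.0752). The part of mural cells in these values was not tested.

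Wisp1 is known as a target of Wnt signalling. Of 12 Wnt target genes 6 were tested, 3 called higher, 2 lower and 1 neither (2 and 1 by DESeq2, median log2 fold change 0.10), where edgeR called 15.9% of all genes higher and 17.2% lower and DESeq2 7.97% and 8.59%, and Lef1 and Sp5 had 0 reads in all 4 libraries. Apcdd1, a Wnt inhibitor, rose from 25.1 to 40.7 CPM (0.71), and Axin2, the general feedback target, from 2.75 to 5.32 CPM (0.95, DESeq2 adjusted p = 0.106). Nkd1, another feedback inhibitor, fell from 6.23 to 2.89 CPM (-1.10).

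Cyr61 belongs with the immediate early genes, which cells transcribe without new protein synthesis after a stimulus. All 20 genes of that list were tested and summed to between 16640 and 18830 CPM per library, with 6 called higher, 12 lower and 2 neither (5 and 10 by DESeq2, median log2 fold change -0.34). The shares over all genes were 15.9% higher and 17.2% lower by edgeR, and 7.97% and 8.59% by DESeq2. The Egr factors Egr3 (-1.01) and Egr2 (-0.76) were lower, from 17.0 to 8.43 and from 65.4 to 38.6 CPM, and Klf4 was higher, from 633 to 1066 CPM (0.76). Fos (2358 and 1902 CPM), Jun (2060 and 1501 CPM) and Egr1 (2591 and 2012 CPM) were lower in DPPIV+ FAPs of both mice and abundant in every library. The cells were sorted after enzymatic digestion of the muscle. The part of that step in the levels of Cyr61 and of these genes was not tested.

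**Figure D5:**
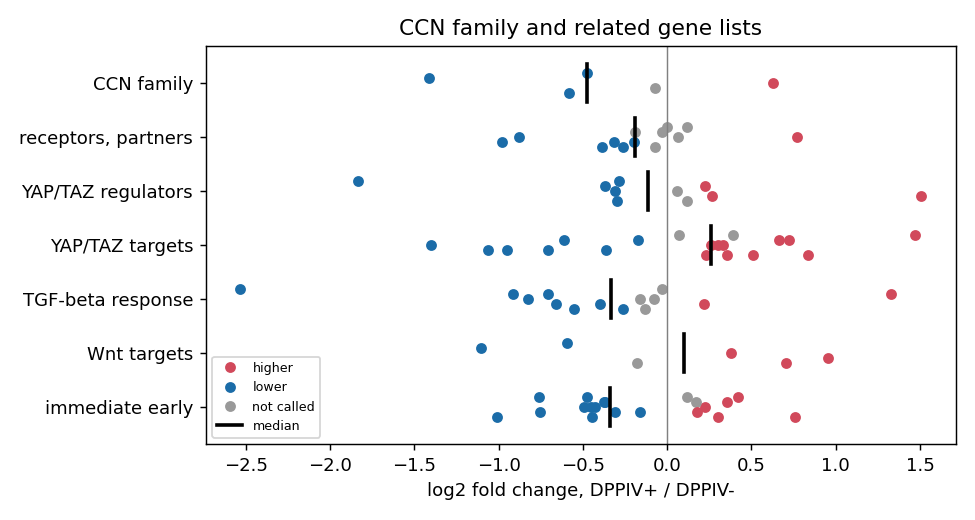
Log2 fold changes (DPPIV+ against DPPIV- FAPs) of the tested genes of the CCN family and of 6 related lists, 1 point per gene, coloured by the call of edgeR's quasi-likelihood test, with a black bar at each list's median. Points stand on both sides of 0 in every list, and the list medians run from -0.47 for the CCN family to 0.26 for the YAP and TAZ targets.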

How the data were processed

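Bulk RNA was sequenced from sorted DPPIV- and DPPIV+ FAPs of 2 mice. After demultiplexing (bcl2fastq 2.20) and STAR alignment to mm10, the authors tallied reads per annotated gene with RnaReadCounter, and they deposited raw read counts per gene symbol, with no filter or normalization. The annotation release is not given in the sources used here.

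Counts were analysed in R 4.3.3 with edgeR 4.0.16 and DESeq2 1.42.0, and annotation in Python 3.11.15 with Biopython 1.88 and BLAST 2.17.0. Genes that reached 2 CPM in 2 or more libraries entered the tests, TMM-normalized and fitted with mouse and cell type (quasi-likelihood F test, two-sided, Benjamini-Hochberg over all these genes, threshold 0.05). Standard errors are the log2 fold change over the square root of F. Ratios per mouse used a prior count of 0.125, and pattern distances (Euclidean) a prior count of 2. The mouse number in the sample titles pairs the libraries, and the differences between mice in DPPIV- and DPPIV+ FAPs correlated at 0.415 across genes. The tests were run first on simulated data, which held no difference between mice, and no result given here rests on that run. The mouse term was examined after seeing the data. Of each list, the 3 largest log2 fold changes among genes called with the same direction in both mice were named, except 1 that is not reported here, and other list members were named after their values were seen. The members and lists were chosen with earlier results of these data known. Levels per length used the union of GENCODE exons. With mouse in the model, p-values rest on how far the difference between cell types varied between 2 mice, as pooled over genes.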

Additional observations from a re-analysis of the deposited data

How the results depend on the processing

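Alternatives were RLE and upper-quartile normalization, no filter, 10 counts in every library, DESeq2's Wald test, edgeR's likelihood ratio test, robust moderation, a stricter threshold of 0.01, a 1.5-fold limit in edgeR's test, no replicate block, and each mouse left out, which leaves 1 library per cell type and so a value with no test. Wisp1 kept its direction and call in all of those with a test (adjusted p from 5.59e-23 to 0.0116), and Cyr61 was called in none (0.241 to 1). Without the paired block, the log2 fold changes were -0.57 for Ctgf and -0.44 for Wisp2 and neither was called, which left 1 member called lower, and over all genes 1001 higher and 1119 lower calls in place of 1837 and 1989. Against a 1.5-fold change, edgeR called 0 members higher and 1 lower, Nov (0.63), Ctgf (-0.58) and Wisp2 (-0.47) losing their calls, with 1 of the 5 members at an unadjusted p under 0.05, and 436 and 656 genes called in all, whereas DESeq2's Wald test without that limit called 923 and 995. Without replicate 1 or 2, the log2 ratio of Cyr61 was -0.19 or 0.054, so its sign depends on the mouse. The other ratios kept their sign without either mouse, and the summed family ratio of 0.943 ran from 0.890 to 0.996 over its alternatives. With 2 mice, spread is borrowed across genes.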
